A study of Mus musculus with 13 samples.

Results

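The 45 genes described here carry a secreted protein through the early secretory pathway, from the ribosome to the Golgi. They were the listed genes of ER translocation, N-glycosylation and COPII transport that the arrays measured, out of 18820 genes measured in all. A gene was read from array features that carry its symbol alone, and where it had several such features, from the brightest on average over the 13 livers. By step they are 6 genes of targeting to the ER, 10 of the translocon, 5 of signal peptidase, 7 of the oligosaccharyltransferase (OST), 10 of the COPII coat and 7 cargo receptors or retrieval factors.

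Expression was profiled in mouse livers, 1 Affymetrix array per liver. Mice were either wildtype or LiSel1l_KO, the label for mice whose hepatocytes lack Sel1L, the adaptor of the Hrd1 ubiquitin ligase in ER-associated degradation (ERAD). All mice were on the C57BL/6J background and were fasted for 5 to 6 hours in the morning before they were killed. Livers were taken at 3 weeks of age from 3 wild-type and 4 Sel1L-deficient mice, and at 9 weeks from 3 mice of each genotype. In the deficient mice exon 6 of Sel1l is floxed and Cre recombinase is expressed from the albumin promoter. Whether other liver cells keep the gene was not measured. The labels do not say whether the wild-type mice carried floxed alleles or the Cre transgene, and they give neither sex nor litter.

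Proteins bound for the blood, which hepatocytes make in bulk, are recognised by the signal recognition particle (SRP) while still on the ribosome and threaded through the Sec61 channel. Signal peptidase then removes the signal peptide, and the OST transfers a preassembled glycan to asparagine residues. Folded cargo leaves in COPII-coated vesicles, while escaped ER proteins with a KDEL tail are returned by KDEL receptors in COPI-coated vesicles. Many of these genes are known targets of the transcription factors XBP1 and ATF6 in the unfolded protein response, the programme that enlarges ER capacity.

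Values are log2 expression after robust multi-array averaging (RMA), so that a difference of 1 is a 2-fold change of signal. Array medians lay between 3.72 and 3.81, and 44 of the 45 genes averaged above every array median; Kdelr3 did not. Livers of the same group correlated at 0.983 to 0.988 over all features and livers of different groups at 0.976 to 0.987. Sel1l measured 8.78, 8.70 and 8.72 in wild type at 9 weeks against 7.90, 7.54 and 7.72 in deficient livers. At 3 weeks it measured 8.94, 8.77 and 8.85 against 8.42, 7.90, 7.20 and 7.10, so that every deficient liver was below every wild-type liver of its age. The difference of -1.02 ± 0.28 (SE) at 9 weeks had an adjusted p of 0.108 (limma), and that of -1.21 ± 0.26 at 3 weeks an adjusted p of 0.391. Where the probes of its feature lie relative to the deleted exon is not given in the sources used here. Of 8 hepatocyte markers 7 were measured, with a mean level of 11.86 to 12.19 in the 13 livers. Markers of plasma and B cells, which also hold much ER, were below the array medians for 6 of the 7 measured. Such bulk values cannot tell fewer cells of a type from less RNA per cell.

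At 9 weeks Sel1L-deficient livers had more RNA for 5 of the 45 genes and less for 0, as called by limma at an adjusted p under 0.05 over all 35556 features. The 5 were Srprb and Srp68 of the targeting step, Sec13 and Sec23a of the COPII coat, and the KDEL receptor Kdelr2. Over all features 1.03% were called higher and 0.484% lower, and over the 10519 genes above every array median 2.38% were called higher. The difference was above 0 for 44 of the 45 genes, against 48.5% of all features and 56.7% of those brighter genes. Their median difference was 0.29 on the log2 scale, against -0.0071 over all features. An unadjusted p under 0.05 was reached upward by 25 genes (7.86% of all features, 14.6% of the brighter genes) and downward by 0 (6.04% of all features). In 21 genes all 3 deficient livers exceeded all 3 wild-type livers, as in 9.89% of all features and 18% of the brighter genes.

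At 3 weeks 0 of the 45 genes were called (limma), as were 0 of all 35556 features (0%). The differences were nevertheless above 0 for 43 genes, against 51% of all features, and their median was 0.17, against 0.0038. An unadjusted p under 0.05 was reached upward by 10 genes (3.9% of all features) and downward by 0 (3.5%). In 12 genes the 4 deficient livers lay above the 3 wild-type livers, as in 3.88% of all features. The 2 ages share no liver.

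**Figure D1:**
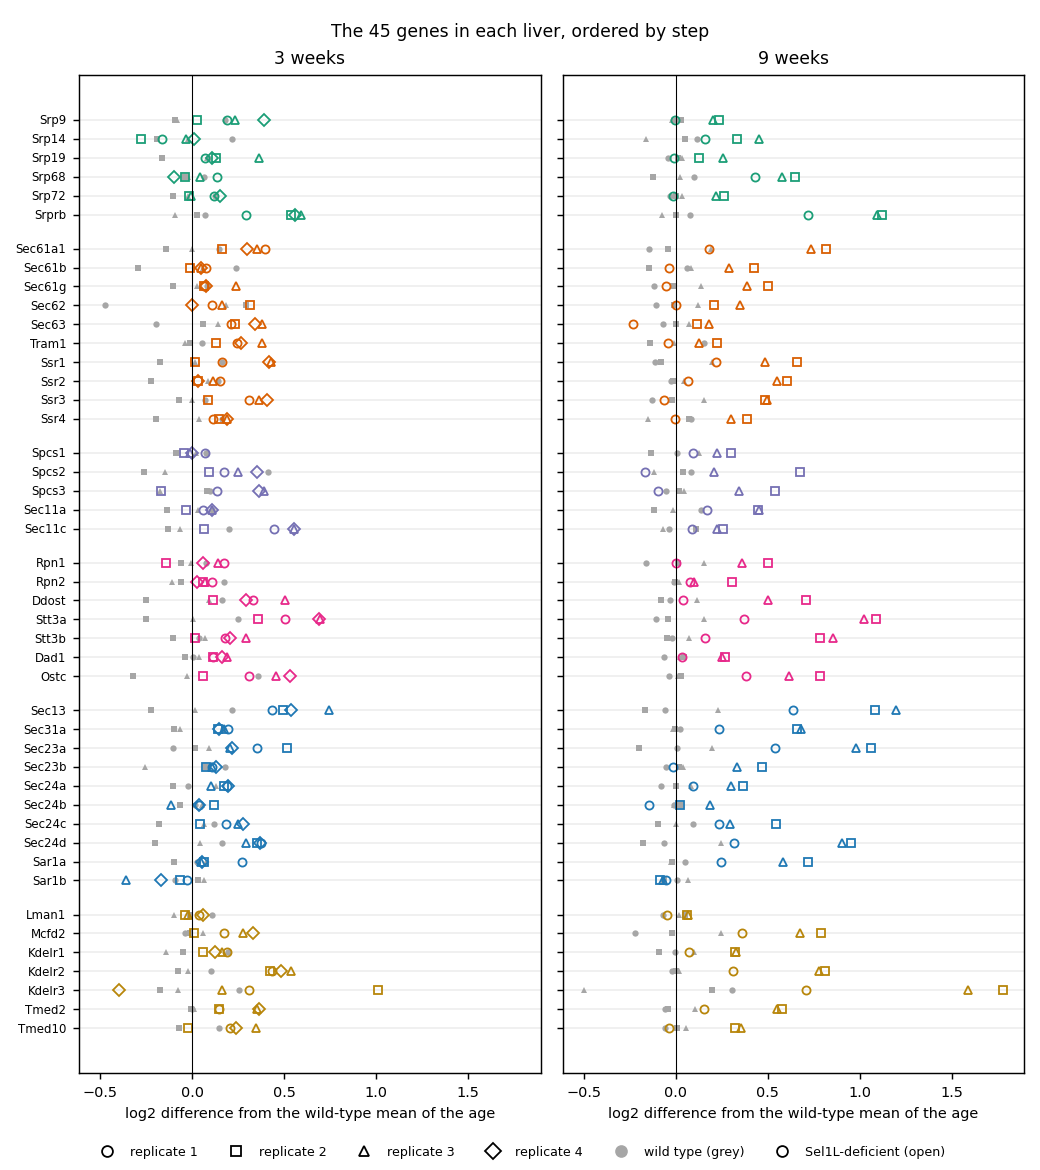
Each point is 1 liver, plotted as the log2 difference of a gene from the wild-type mean of that age, with 3-week livers on the left and 9-week livers on the right. Colours mark the 6 steps, grey filled points are wild type, open points are Sel1L-deficient, and the marker shape gives the replicate number. At 9 weeks replicates 2 and 3 of the deficient livers lay above every wild-type liver in 42 genes, and replicate 1 did so as well in 21 of these.

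The deficient livers of 9 weeks were not alike. The mean difference of the 45 genes from the wild-type mean was 0.13 in replicate 1, 0.54 in replicate 2 and 0.48 in replicate 3, while the wild-type livers lay at -0.02, -0.03 and 0.04. Replicate 1 was the lowest deficient liver in 44 of the 45 genes. It exceeded every wild-type liver in 21 genes, and replicates 2 and 3 did so in 43 genes each. Over all features these shares were 27.6%, 27.3% and 27.1%. Replicate 1 was also lowest of the 3 for Hspa5, the ER chaperone BiP, with 11.50 against 12.43 and 12.49 (wild type 10.46, 10.59 and 10.48). Its Sel1l value of 7.90 was the highest of the 3. At 3 weeks the deficient liver with the highest Sel1l value, replicate 1 at 8.42, had a mean difference of 0.19. That lay within the 0.12 to 0.24 of its group. A link to the Sel1l level was not tested.

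Leaving out a liver of 9 weeks moved the number of called genes. It was 17 without deficient replicate 1, 1 without replicate 2 (Srprb) and 0 without replicate 3. Without wild-type replicate 1 it was 2 (Srp68 and Srprb), without replicate 2 it was 1 (Srprb), and without replicate 3 it was 3 (Srprb, Sec13 and Sec23a). With only the 9-week livers fitted it was 0. The share of all features called, in either direction, moved too, from 1.52% in the main fit. It was 3.31%, 0.0844% and 0.0506% without deficient replicates 1, 2 and 3. Without wild-type replicates 1, 2 and 3 that share was 0.394%, 0.225% and 0.616%, and with only the 9-week livers 0.00281%. The median difference of the 45 genes ranged from 0.20 (without deficient replicate 2) to 0.44 (without replicate 1). In each of these fits 42 to 44 of them stayed above 0. The 12 that were called in addition without replicate 1 were Sec61a1, Sec61g, Ssr2, Sec11a, Stt3a, Stt3b, Sec31a, Sec24d, Sar1a, Mcfd2, Kdelr3 and Tmed2.

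Markers of Kupffer cells and macrophages moved along with the split among these 3 livers. All 8 listed markers were measured and none was below the array medians. Their mean difference from the wild-type mean was -0.75 in replicate 1, 0.43 in replicate 2 and 0.39 in replicate 3, and their mean level was 6.83 to 8.01 in the deficient livers and 7.33 to 7.79 in wild type. Hepatocyte markers differed by -0.06, -0.18 and -0.26 in the 3 deficient livers. The part of either in the members' differences was not tested.

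At 3 weeks the deficient livers were closer to each other, with mean differences of 0.19, 0.12, 0.24 and 0.21. All 4 were above the 3 wild-type livers, which lay at 0.10, -0.10 and -0.0023. The wild-type livers themselves differed across most of the genes, since replicate 1 was above the wild-type mean in 38 genes and replicate 2 in 7. Kupffer and macrophage markers had mean differences of -0.43, -0.53, -0.51 and -0.21 in these deficient livers over 8 markers, with mean levels of 7.55 to 7.88 against 8.02 to 8.16 in wild type. Erythroid markers (5 of 8 measured, 2 of them below the array medians) had mean levels of 3.64 to 4.06 against 4.19 to 4.74. The part of these cell types was not tested.

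**Figure D2:**
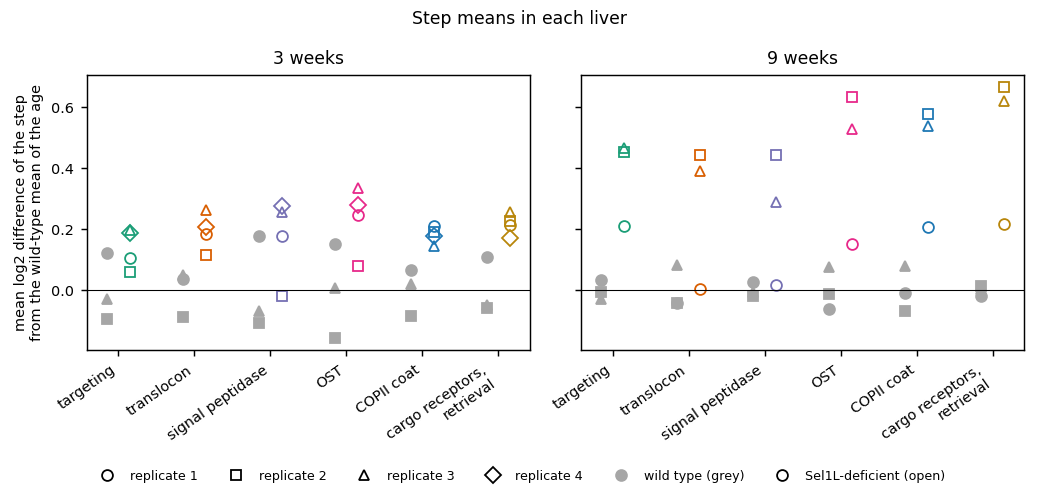
Each point is 1 liver, plotted as the mean log2 difference of a step's genes from the wild-type mean of that age, with grey for wild type, open colours for Sel1L-deficient livers and shapes for replicate numbers. At 9 weeks the mean of replicate 1 was 0.0023 for the translocon and 0.22 for cargo receptors and retrieval, while replicates 2 and 3 lay at 0.29 or higher in each step.

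The array descriptions carry a code, 5 or 7, whose meaning the labels do not give, and each group had livers of both. Within code 5 (2 deficient and 1 wild-type liver) the median difference of the 45 genes at 9 weeks was 0.27, with 41 genes above 0. Within code 7 (1 deficient and 2 wild-type livers) it was 0.49, with 44 above 0. At 3 weeks it was 0.09 within code 5 (37 above 0) and 0.28 within code 7 (43 above 0). With the code as a block 4 genes were called at 9 weeks, and Kdelr2 was not (adjusted p = 0.0503, limma).

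The targeting step held the gene with the smallest p of the 45. Srprb encodes the membrane-anchored beta subunit of the SRP receptor, which docks the ribosome at the ER. At 9 weeks Srprb measured 6.71, 6.63 and 6.55 in wild type and 7.35, 7.75 and 7.72 in deficient livers. The groups did not overlap, and deficient replicate 1 was the lowest of its group. Srprb rose by 0.98 ± 0.12 (1.97-fold, adjusted p = 0.0082, limma, n = 3 and 3), by 0.91 within code 5 and 1.12 within code 7. With 1 liver left out the adjusted p was 0.00128 to 0.0516, the highest without deficient replicate 3 of 9 weeks. The 3-week values were 6.72, 6.68 and 6.56 against 6.94, 7.19, 7.25 and 7.21, again without overlap. That difference was 0.49 ± 0.11, with an adjusted p of 0.396.

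Srp68 encodes a core protein of the SRP itself, where it binds the RNA together with Srp72. It measured 6.89, 6.67 and 6.81 in wild type at 9 weeks and 7.22, 7.44 and 7.37 in deficient livers. It rose by 0.55 ± 0.09 (1.47-fold, adjusted p = 0.0196, limma), with 0.63 and 0.58 within codes 5 and 7. With 1 liver left out the adjusted p was 0.0087 to 0.0981, and the call was lost without wild-type or deficient replicate 2 or 3 of 9 weeks. The 3-week livers overlapped, at 7.01, 6.90 and 6.92 in wild type and 7.08, 6.90, 6.99 and 6.84 in deficient livers, with a difference of 0.0089 ± 0.086 that turned negative under several alternatives. Its change between ages, 0.54 ± 0.13 on the log2 scale, had an unadjusted p of 0.0012 and an adjusted p of 0.245 (limma). The other 4 targeting genes, the SRP proteins Srp9, Srp14, Srp19 and Srp72, differed by 0.12 to 0.31 at 9 weeks, and none was called. The partner Srp72 differed by 0.15 ± 0.09. At 3 weeks Srp14 was the lowest of the step, at -0.12 ± 0.12.

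Promoter sequence is shown for the called genes that had a window and for the 2 genes with a UPRE match. The motifs searched on both strands were the ER stress elements ERSE and ERSE-II, the XBP1-type element UPRE (TGACGTGG) and the core CCACG, which is part of each of the others. Windows are the 250 bases before a RefSeq transcript start in GRCm38.p6, 5′ to 3′ on the gene's strand. RefSeq promoters were matched for 34 of the 45 genes, in 37 windows. ERSE and ERSE-II matched 0 of the 37, against 0.113% and 0.0304% of all 32851 windows. UPRE matched 2 (5.41% against 0.563%), those of Kdelr3 and Sec24d. The core matched 19 windows of 18 genes (51.4% against 28.3%). Among the called genes with a window it was present in Srprb and not in Sec13 or Sec23a. These matches describe letters in a window and not bound sites. In the printed windows capitals mark the core on either strand and the UPRE.

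The Srprb window lies at chr9:103202066-103202315 on the minus strand and has 3 cores, 56 to 32 bases before the start.
Srprb: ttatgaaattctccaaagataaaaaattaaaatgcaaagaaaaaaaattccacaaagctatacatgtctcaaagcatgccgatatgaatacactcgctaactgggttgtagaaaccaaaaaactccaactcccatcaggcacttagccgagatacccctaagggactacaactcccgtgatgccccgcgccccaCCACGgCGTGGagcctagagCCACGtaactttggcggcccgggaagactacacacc

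No translocon gene was called at 9 weeks (limma), although all 10 differences were above 0. They ran from 0.02 ± 0.12 for Sec63 to 0.58 ± 0.16 for Sec61a1, with a median of 0.25, and 3 had an unadjusted p under 0.05, to be read against the same 7.86% and 14.6% in this and each later step. The dimmer Sec62 feature, which was not used, differed by -0.18 ± 0.11, against 0.19 ± 0.18 for the one used. The dimmer features of Sec61b and Sec61g were above 0. Sec61a1 encodes the pore of the Sec61 channel. It measured 9.05, 9.15 and 9.39 in wild type and 9.37, 10.01 and 9.93 in deficient livers, with an adjusted p of 0.112. Deficient replicate 1 fell within the wild-type range. With 1 liver left out Sec61a1 differed by 0.46 (without deficient replicate 2) to 0.77 (without replicate 1). The adjusted p was then 0.00876 to 0.358 (limma), the lowest without replicate 1. Ssr1, the alpha subunit of the translocon-associated protein complex, measured 7.38, 7.41 and 7.69 in wild type and 7.71, 8.15 and 7.98 in deficient livers. Deficient replicate 1 lay only just above the highest wild-type liver, and the difference of 0.45 ± 0.15 had an adjusted p of 0.192.

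At 3 weeks the 10 translocon differences were again all above 0, from 0.04 for Sec61b to 0.30 for Sec61a1, with a median of 0.21. A dimmer Sec61b feature, which was not used, was at -0.03 ± 0.12. The other unused features of Sec61b, Sec61g and Sec62 were above 0. Sec61a1 measured 9.48, 9.19 and 9.33 against 9.73, 9.50, 9.68 and 9.63, and Ssr1 7.71, 7.37 and 7.56 against 7.71, 7.56, 7.98 and 7.97. The Sec61a1 groups lay close without overlap, whereas the Ssr1 groups overlapped. Sec63, the J-domain partner that couples the channel to BiP, had a larger difference at 3 weeks (0.29 ± 0.11) than at 9 weeks. The change of its difference between ages, -0.27 ± 0.17, had an adjusted p of 0.643 (limma).

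Signal peptidase had the lowest maximum of the 6 steps at 9 weeks. Its 5 differences ran from 0.19 to 0.35, and 0 were called while 2 had an unadjusted p under 0.05 (limma). Sec11a, a catalytic subunit, measured 8.87, 8.62 and 8.72 in wild type and 8.90, 9.18 and 9.19 in deficient livers. The lowest deficient liver, replicate 1, was just above the highest wild-type liver, and the difference was 0.35 ± 0.10 with an adjusted p of 0.136. Spcs1, an accessory subunit, measured 8.99, 8.85 and 9.11 against 9.07, 9.28 and 9.21, and the groups overlapped (0.21 ± 0.09, adjusted p = 0.326). At 3 weeks Spcs1 measured 9.23, 9.07 and 9.18 against 9.23, 9.12, 9.15 and 9.16, and Sec11a 8.78, 8.53 and 8.70 against 8.73, 8.64, 8.78 and 8.78. Both genes overlapped there, with differences of 0.0015 ± 0.083 and 0.06 ± 0.10. The other catalytic subunit, Sec11c, had the largest difference of the step at 3 weeks, 0.40 ± 0.13, and 0.19 ± 0.14 at 9 weeks.

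The OST genes had a median difference of 0.42 at 9 weeks and 0.17 at 3 weeks, and all 7 differences were above 0 at both ages. None was called (limma), while 5 had an unadjusted p under 0.05 at 9 weeks. Stt3a is the catalytic subunit of the OST that sits at the translocon. At 9 weeks Stt3a measured 8.75, 8.81 and 9.01 in wild type and 9.23, 9.95 and 9.88 in deficient livers, without overlap. Its difference was 0.83 ± 0.19 (1.77-fold, adjusted p = 0.061). With 1 liver left out it was 0.69 (without deficient replicate 2) to 1.06 (without replicate 1). The adjusted p was then 0.00616 to 0.230 (limma), the lowest without replicate 1. The 3-week livers had 9.34, 8.83 and 9.09 against 9.59, 9.44, 9.78 and 9.78, again without overlap. That difference, 0.56 ± 0.18, was the largest of the 45 genes at 3 weeks (adjusted p = 0.531).

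Stt3b is the catalytic subunit of the other OST complex, which glycosylates sites that the translocon-bound form has skipped. It measured 8.26, 8.23 and 8.35 in wild type at 9 weeks and 8.44, 9.06 and 9.13 in deficient livers. The groups did not overlap, and the difference of 0.60 ± 0.16 had an adjusted p of 0.0947. As a mean over its 2 array features the difference was 0.31 ± 0.09 (adjusted p = 0.114). At 3 weeks Stt3b measured 8.69, 8.55 and 8.73 against 8.83, 8.67, 8.94 and 8.86, with a difference of 0.17 ± 0.15 and an overlap at deficient replicate 2. Ostc, which recruits the Stt3a complex to the translocon, differed by 0.59 ± 0.17 and 0.34 ± 0.16 at 9 and 3 weeks, and Rpn2 by 0.16 ± 0.09 and 0.06 ± 0.08.

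**Figure D3:**
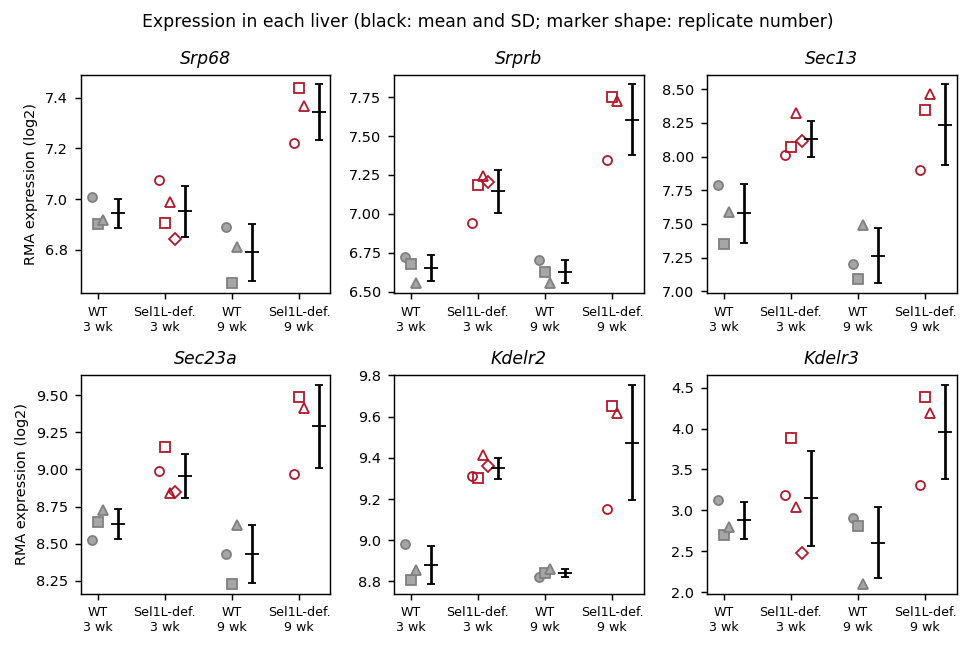
RMA log2 expression of the 5 genes called at 9 weeks and of Kdelr3 in each of the 13 livers, with wild type in grey and Sel1L-deficient livers as open red points, and black bars for the group mean and SD. The vertical axes differ between panels and do not start at 0. In each of the 5 called genes the 3 deficient livers of 9 weeks lay above the 3 wild-type livers.

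Of the 10 COPII coat genes 2 rose at 9 weeks (1.03% of all features and 2.38% of the brighter genes were called higher). An unadjusted p under 0.05 was reached by 7 (upward in 7.86% and 14.6%), and the median difference was 0.44. Sec13, which pairs with Sec31 in the outer cage of the coat and is also part of the nuclear pore, measured 7.21, 7.10 and 7.49 in wild type and 7.90, 8.35 and 8.46 in deficient livers. It rose by 0.97 ± 0.17 (1.96-fold, adjusted p = 0.0221, limma, n = 3 and 3), with 1.09 and 1.00 within codes 5 and 7. With 1 liver left out the adjusted p ran from 0.00452 to 0.104, and the call was lost without wild-type replicate 1 or 2 or deficient replicate 2 or 3 of 9 weeks. The 3-week values of 7.79, 7.35 and 7.59 against 8.01, 8.07, 8.32 and 8.11 did not overlap either, with a difference of 0.55 ± 0.16 (adjusted p = 0.464). Its cage partner Sec31a differed by 0.52 ± 0.12 at 9 weeks (adjusted p = 0.0527) and by 0.16 ± 0.11 at 3 weeks.

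Sec23a encodes the inner-coat protein that activates the GTPase of Sar1. It measured 8.43, 8.23 and 8.63 in wild type at 9 weeks and 8.97, 9.49 and 9.41 in deficient livers. It rose by 0.86 ± 0.15 (1.81-fold, adjusted p = 0.0228, limma), with 0.96 within either code. Its adjusted p was 0.00373 to 0.109 with 1 liver left out, and the call was lost without the same 4 livers as for Sec13, and with only the 9-week livers fitted (adjusted p = 0.181). In the younger livers it measured 8.53, 8.65 and 8.73 against 8.99, 9.15, 8.84 and 8.85, without overlap (0.32 ± 0.14, adjusted p = 0.654). Its paralogue Sec23b differed by 0.26 ± 0.13 and 0.10 ± 0.12 at 9 and 3 weeks. These values are from separate fits of the 2 genes, and the difference between them was not tested.

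The paralogues of the other coat proteins also covered a range. Sec24 proteins pick the cargo, and at 9 weeks Sec24a, Sec24b, Sec24c and Sec24d differed by 0.25 ± 0.09, 0.02 ± 0.09, 0.36 ± 0.11 and 0.72 ± 0.17, with Sec24d at an adjusted p of 0.0614. At 3 weeks the 4 values were 0.16, 0.02, 0.19 and 0.35. Sar1 starts coat assembly: Sar1a differed by 0.51 ± 0.12 at 9 weeks (adjusted p = 0.0571) and by 0.11 ± 0.11 at 3 weeks. Sar1b, the isoform known for chylomicron secretion, differed by -0.07 ± 0.09 and -0.16 ± 0.09. No other of the 45 genes had a difference below 0 at 9 weeks.

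The Sec24d window lies at chr3:123267246-123267495 on the plus strand, with its UPRE 26 to 19 bases before the start. Sec13 (chr6:113740682-113740931, minus strand) and Sec23a (chr12:59012018-59012267, minus strand) are shown as called genes whose windows hold none of the motifs.
Sec24d: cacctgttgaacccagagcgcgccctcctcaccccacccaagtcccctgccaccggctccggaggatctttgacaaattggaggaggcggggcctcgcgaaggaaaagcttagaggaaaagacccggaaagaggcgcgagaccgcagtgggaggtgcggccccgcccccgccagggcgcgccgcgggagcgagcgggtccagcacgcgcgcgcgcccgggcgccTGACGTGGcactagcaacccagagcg
Sec13: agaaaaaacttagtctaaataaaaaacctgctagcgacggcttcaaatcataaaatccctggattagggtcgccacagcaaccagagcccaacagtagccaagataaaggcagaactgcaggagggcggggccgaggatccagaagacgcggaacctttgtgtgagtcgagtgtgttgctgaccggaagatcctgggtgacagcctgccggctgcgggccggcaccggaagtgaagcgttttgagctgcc
Sec23a: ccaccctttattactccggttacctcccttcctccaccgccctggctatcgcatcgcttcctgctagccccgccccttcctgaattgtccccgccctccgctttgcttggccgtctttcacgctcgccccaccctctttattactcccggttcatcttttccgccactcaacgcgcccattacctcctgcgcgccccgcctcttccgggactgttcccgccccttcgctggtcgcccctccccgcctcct

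All 7 cargo receptors and retrieval factors had differences above 0 at 9 weeks, with a median of 0.43, and 5 had an unadjusted p under 0.05. Kdelr2, a receptor that returns KDEL proteins such as BiP from the Golgi, measured 8.82, 8.84 and 8.86 in wild type and 9.15, 9.65 and 9.62 in deficient livers. It rose by 0.63 ± 0.12 (1.55-fold, adjusted p = 0.0295, limma), with 0.54 and 0.81 within codes 5 and 7. The call was lost without any 1 of the 9-week livers other than deficient replicate 1, with an adjusted p of 0.00144 to 0.128 over the livers left out. At 3 weeks it measured 8.98, 8.80 and 8.85 against 9.31, 9.30, 9.42 and 9.36, and the 4 deficient livers lay close together above all wild-type livers. That difference of 0.47 ± 0.11 had an unadjusted p of 0.0014 and an adjusted p of 0.418.

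Kdelr1 and Kdelr3 are its paralogues. Kdelr1 differed by 0.24 ± 0.11 at 9 weeks and by 0.13 ± 0.10 at 3 weeks. Kdelr3 measured 2.91, 2.80 and 2.10 in wild type at 9 weeks and 3.31, 4.38 and 4.19 in deficient livers, without overlap. The 3 wild-type livers and deficient replicate 1 were below the array medians, so that a level above background was not shown for them and no fold is given. The fitted difference was 1.36 ± 0.36 with an adjusted p of 0.0997 (limma), and 1.11 to 1.69 with 1 liver left out. The 3-week values of 3.13, 2.70 and 2.80 against 3.19, 3.89, 3.04 and 2.48 overlapped (0.27 ± 0.34). The Kdelr3 window lies at chr15:79516158-79516407 on the plus strand, with its UPRE on the opposite strand 30 to 23 bases before the start.
Kdelr3: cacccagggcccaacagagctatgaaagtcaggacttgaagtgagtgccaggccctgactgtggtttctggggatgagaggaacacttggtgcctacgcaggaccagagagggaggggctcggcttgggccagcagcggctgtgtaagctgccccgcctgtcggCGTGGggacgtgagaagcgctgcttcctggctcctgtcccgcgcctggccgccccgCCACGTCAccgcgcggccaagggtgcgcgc

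Lman1 and Mcfd2 together form the receptor that exports coagulation factors V and VIII. The 2 partners had different values in the same livers. Mcfd2 measured 7.97, 8.16 and 8.43 in wild type at 9 weeks and 8.55, 8.98 and 8.86 in deficient livers, a difference of 0.61 ± 0.14 without overlap (adjusted p = 0.0603, limma). Lman1 differed by 0.03 ± 0.08 at 9 weeks and by 0.0086 ± 0.072 at 3 weeks. At 3 weeks Mcfd2 measured 8.46, 8.49 and 8.56 against 8.68, 8.51, 8.78 and 8.83, with an overlap at deficient replicate 2 (0.20 ± 0.13). Whether Mcfd2 and Lman1 differed from each other was not tested.

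**Figure D4:**
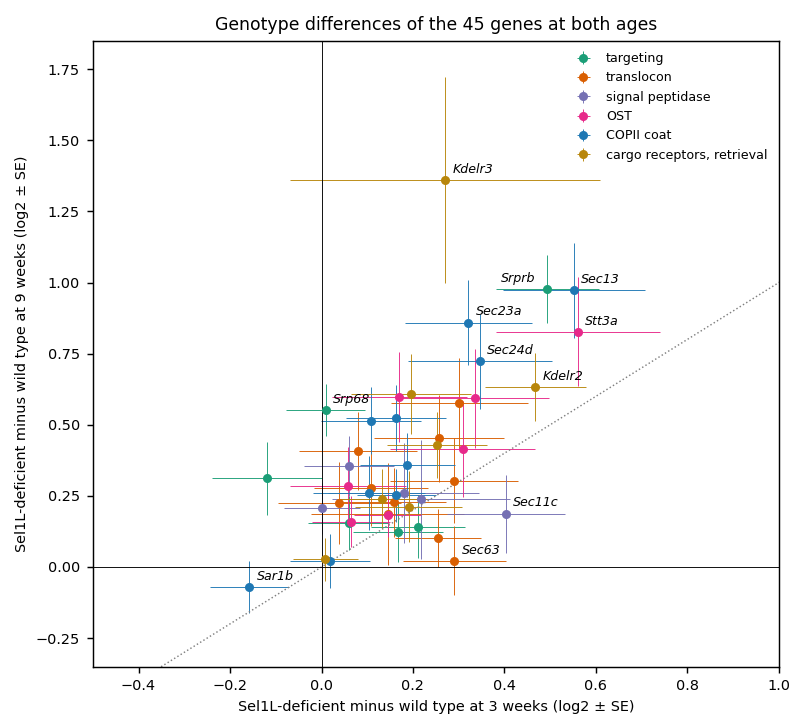
Each point is 1 of the 45 genes, with its Sel1L-deficient minus wild-type difference at 3 weeks on the horizontal axis and at 9 weeks on the vertical axis, bars of 1 SE from the limma fit, and colours for the 6 steps. The dotted line marks equal differences. Most genes lay above it, with Sec63 and Sec11c among those below it and Sar1b below 0 at both ages.

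The change of the genotype difference between ages was tested directly as an interaction. None of the 45 genes was called, nor was any of the 35556 features (0%, limma). The change was above 0 for 40 genes, against 48.9% of all features, with a median of 0.17 against -0.0067. An unadjusted p under 0.05 was reached upward by 6 genes (5.18% of all features, 9.43% of the brighter genes) and downward by 0 (4.55% of all features). These were Srp14, Srp68, Srprb, Sec31a, Sec23a and Sar1a, of which Srprb changed by 0.48 ± 0.16 and Sec23a by 0.54 ± 0.20. The change was 0.42 ± 0.23 for Sec13, 0.16 ± 0.16 for Kdelr2, 0.27 ± 0.26 for Stt3a and 0.43 ± 0.22 for Stt3b. The median over the genes was 0.30 without deficient replicate 1 of 9 weeks and 0.08 without replicate 2.

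Ageing was compared within each genotype, and these comparisons share their livers with the genotype comparisons above. In wild type 0 of the 45 genes were called between 3 and 9 weeks (limma), against 1.89% of all features. Upward, 3 genes reached an unadjusted p under 0.05 (6.33% of all features, 8.61% of the brighter genes). Downward, 5 did (7.29% and 12.7%). The median was -0.04, with 17 genes above 0 (53.1% of all features, 46.7% of the brighter genes). The values ran from -0.63 ± 0.17 for Ostc to 0.38 ± 0.12 for Sec63, both named here after their values were seen. In deficient livers 0 were called as well, against 0.155% of all features. The median there was 0.12, with 40 genes above 0 (50.9% of all features, 53.4% of the brighter genes). Upward, 8 genes reached an unadjusted p under 0.05 (5.19% of all features, 9.39% of the brighter genes). Downward, 1 did (4.88% and 8.51%). The wild-type means of 6 of the 7 OST genes were lower at 9 than at 3 weeks, and those of Srprb and Kdelr2 differed by -0.02 ± 0.12 and -0.04 ± 0.12.

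Of 105 further genes of the same pathway 94 were measured, and 13 rose and 0 fell at 9 weeks (limma, adjusted p under 0.05 over all features), where 1.03% of all features and 2.38% of the brighter genes were called higher. Their median difference was 0.24, with 75 above 0, against 48.5% of all features. The number called was 33 without deficient replicate 1 of 9 weeks, 0 without replicate 2 or 3, and 2, 1 and 4 without wild-type replicates 1, 2 and 3. It was 8 to 15 without any 1 of the 3-week livers, and 0 with only the 9-week livers fitted. The shares of all features called without a 9-week liver, given above, moved as well. The COPI coat and its Arf GTPases, which form the vesicles that carry KDEL receptors and their cargo back to the ER, made up 8 of the 13. All but 1 of the 12 COPI genes were above 0 at 9 weeks, with a median of 0.66. The exception was Copg2, at -0.04 ± 0.18, a paralogue of the called Copg1.

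Arf4, a small GTPase of the early Golgi, measured 8.77, 8.86 and 8.94 in wild type at 9 weeks and 9.78, 10.76 and 10.54 in deficient livers. It rose by 1.5 ± 0.21 (2.84-fold, adjusted p = 0.0121, limma). At 3 weeks it measured 9.00, 8.65 and 8.91 against 9.71, 9.94, 9.78 and 9.65, and the groups did not overlap at either age. Copb2, a coat subunit that binds the retrieval signals of cargo, rose by 0.97 ± 0.13 (adjusted p = 0.0121), Copg1 by 0.93 ± 0.15, Copb1 by 0.70 ± 0.11 and Arcn1 by 0.59 ± 0.11. Copa, Cope and Arf1 were the other called genes of this group. At 3 weeks 0 of the 12 COPI genes were called, while 11 had an unadjusted p under 0.05 upward (3.9% of all features) and 10 did not overlap (3.88%), and the median was 0.45. The smallest p-values of the 94 genes at 3 weeks were those of Copb2 (0.79 ± 0.13), Arf4 (0.92 ± 0.19) and Copg1 (0.62 ± 0.14), with adjusted p-values of 0.391, 0.391 and 0.418.

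The enzymes that build the glycan transferred by the OST had a median difference of 0.27 at 9 weeks, with 27 of 29 above 0 and 2 that rose. Of all features 48.5% were above 0 and 1.03% were called higher (56.7% and 2.38% of the brighter genes). Gfpt1, the rate-limiting enzyme of the hexosamine pathway that supplies UDP-GlcNAc, measured 6.14, 5.67 and 6.06 in wild type and 6.72, 7.86 and 7.76 in deficient livers. It rose by 1.49 ± 0.26 (2.80-fold, adjusted p = 0.0228, limma). Alg8, a glucosyltransferase of the lipid-linked glycan, rose by 0.64 ± 0.11 (adjusted p = 0.0249), at 6.42, 6.35 and 6.49 against 7.0, 7.12 and 7.06. In wild type Alg8 fell between 3 and 9 weeks by 0.83 ± 0.11 (adjusted p = 0.00537, limma). It was 7.42, 6.95 and 7.37 in wild type at 3 weeks and 7.26, 7.18, 7.09 and 7.25 in deficient livers, so that the deficient livers of 9 weeks lay within the range of the 3-week wild type.

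Regulators of COPII assembly and the SNARE proteins of its vesicles had a median of 0.39 at 9 weeks, with 14 of 16 above 0, and Preb and Stx5a rose. The same 48.5% and 1.03% of all features (56.7% and 2.38% of the brighter genes) were above 0 and called higher. Among 14 further cargo receptors the median was 0.07, and Tmed9 rose by 0.67 ± 0.12 (adjusted p = 0.0272, limma). The 15 other translocon and membrane insertion genes, among them the EMC subunits, had a median of -0.01 at 9 weeks and 0.02 at 3 weeks, with 7 of 15 and 8 of 15 above 0 and 0 called. The 5 remaining OST subunits had medians of 0.25 and 0.29, and the 3 remaining targeting genes 0.47 and -0.05, with 0 called in either list.

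**Figure D5:**
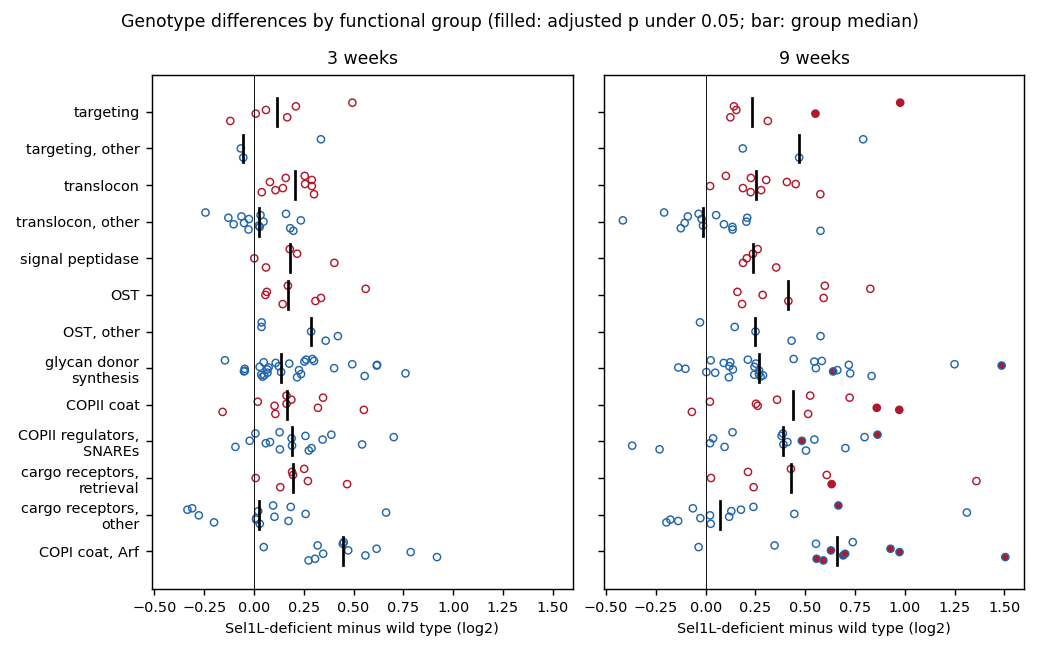
Each point is 1 gene, plotted as its Sel1L-deficient minus wild-type difference (log2) at 3 and 9 weeks and grouped by function, with red outlines for the 45 genes and blue outlines for the further pathway genes. Filled points had an adjusted p under 0.05 (limma), and black bars are group medians. At 9 weeks 8 of the 12 COPI genes were called (1.03% of all features were called higher), and at 3 weeks no gene was.

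Levels of Xbp1 and of the target genes Hspa5 and Dnajb9 were read from the same arrays. Xbp1, whose RNA level does not show its splicing, measured 9.05, 9.16 and 8.61 in wild type at 9 weeks and 8.78, 9.09 and 8.95 in deficient livers, which overlapped. Hspa5, a target of ATF6 and XBP1, rose by 1.63 ± 0.24 at 9 weeks (adjusted p = 0.0126, limma) and differed by 1.17 ± 0.22 at 3 weeks (adjusted p = 0.391). Dnajb9, a BiP cochaperone and a known XBP1 target, differed by 0.56 ± 0.27 at 9 weeks and by -0.27 ± 0.26 at 3 weeks. At 9 weeks it was 8.08, 9.04 and 8.98 in the deficient livers and 8.12, 8.22 and 8.06 in wild type, so that replicate 1 was again apart from the other two.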

How the data were processed

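Per the labels' protocols, total RNA (integrity number above 8, 100 ng per liver) was labelled with the array supplier's whole-transcript sense assay. The series matrix gives log2 expression values that the authors deposited after RMA, per the submitters' processing notes; its version and the genome build are not given in the sources used here. RMA equalises the distribution of probe signals between arrays, so that a shift common to most genes is removed, and the table holds no detection calls. It held 35556 features, of which 21218 had 1 gene symbol in the platform annotation, 1881 several and 12457 were unlisted and stay unnamed. Of the 45 genes 38 had 1 feature and 7 had several, and Sec61b, Sec61g, Sec62, Srp9, Stt3b, Tmed10 and Tmed2 were read from the brightest.

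Sample titles gave the groups and the replicate numbers. Group means over all 13 livers were fitted with limma 3.58.1 in R 4.3.3 (lmFit, eBayes, two-sided), and 5 contrasts were tested: genotype at each age, their difference, and age in each genotype. Benjamini-Hochberg adjustment ran over the 35556 features together, with 0.05 as the threshold. Adjusted p-values of single genes are from this fit, which was also tested on simulated data. The labels describe separate mice. The p-values rest on the spread between livers within groups, which the fit shares over all groups and moderates over the features. Precision is limited by the number of arrays: the median SD of a feature between livers of a group was 0.148 to 0.156. The 45 genes together spread more widely in the deficient livers of 9 weeks, with mean differences of 0.13, 0.54 and 0.48. Wild-type livers of that age lay at -0.02, -0.03 and 0.04. The SEs at 9 weeks rest on the spread shared with the other groups.

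The 45 genes, the further pathway genes and the cell type markers were chosen with earlier results of these data known, so that medians and counts of lists are descriptions without a test. Values per liver are given for called genes and for the 2 genes of each step with the smallest p at 9 weeks. Otherwise the largest and smallest difference of a step, paralogues, and up to 8 called further pathway genes by p are named (the 3 with the smallest p where none was called). Promoter windows came from a RefSeq table (GRCm38.p6); 11 of the 45 genes had none there. Alternatives were each liver left out, the replicate number or the unexplained code of the array descriptions as a block, 2 further normalizations, 2 filters on features, the mean over a gene's features, trended and robust variance moderation, and a fit of only the groups compared. The group of 4 livers was also searched, in 36 genes and step means, for a liver far from the other 3.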

Additional observations from a re-analysis of the deposited data

Results flagged for a closer look

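In Copg1, a subunit of the COPI coat, Sel1L-deficient replicate 1 of 3 weeks measured 7.75 and lay far below the other 3 livers of its group, at 7.96, 7.98 and 8.00. Its gap to the nearest liver was 0.836 of the group's range, above Dixon's 95% critical value for 4 livers. It was the single case among 36 genes and step means examined in this group of 4, and chance gives about 1 in 20. Groups of 3 livers were not examined.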

How the results depend on the processing

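The median difference of the 45 genes kept its sign at both ages in every fit run, at 0.26 to 0.32 (9 weeks) and 0.15 to 0.17 (3 weeks) over the 9 settings with all livers and 0.20 to 0.44 and 0.13 to 0.23 with 1 liver left out. The number called at 9 weeks did not hold. It was 10 with only features above the median feature mean tested (4.83% of those features called), and also 10 with only features of 1 symbol (3.31%). It was 8 with trended and robust moderation (1.78% of all features) and 0 with only the 2 groups fitted (0.00281%). With 1 liver left out it was 0 to 17 (0.0506% to 3.31%). At 3 weeks 0 of the 45 genes were called under any setting. Kdelr3 had no value under the filter on dim features. Replicate numbers were shared between groups, and residuals of same-numbered livers correlated at -0.013 to 0.077 (median 0.028, n = 18 pairs) against -0.085 to 0.059 (median -0.012, n = 45) for other numbers. Of 13 livers 9 had their own number in their closest liver of another group, and replicate 4 had no same-numbered liver in another group. This was a hint of pairing from the data and not from the design. No pair reached the correlation of 0.1 required, which does not exclude pairing, and the numbers were not taken as pairs. With them as a replicate block 2 of the 45 genes (Srprb and Sec13), 3 further pathway genes and 184 features were called at 9 weeks, 440 features for ageing in wild type and 12 in deficient livers. For replicate 3 of either genotype at 9 weeks the array description gives a number unlike the title's. The cause of a changed count was not tested.

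Features called at 9 weeks were 294 with the array description's code as a block, 859 with the filter on dim features and 1 with only the 2 groups, and 18 to 1178 with 1 liver left out. Further pathway genes called at 9 weeks were 8 with the code as a block, 25 with either filter, 0 with only the 2 groups and 0 to 33 with 1 liver left out. With features of 1 symbol only, 2 features were called at 3 weeks and 15 for the interaction, and with 1 liver left out 0 to 1 and 0 to 36. Ageing in wild type gave 255 features and 0 further pathway genes with only its groups, and 296 to 639 features and 1 to 2 genes with 1 liver left out. Ageing in deficient livers gave 18 features with the code as a block, 35 with median centring, 109 and 144 with the dim and symbol filters (the latter with 1 further pathway gene) and 9 with only its groups. With 1 liver left out it gave 6 to 210 features, 0 to 4 further pathway genes, 0 to 1 of the 45 genes and a median of 0.040 to 0.26. The interaction median ran from 0.08 to 0.30.

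Differences near 0 changed sign. At 3 weeks Srp68 was -0.0097 with the code as a block, -0.016 with median centring and -0.0039 with a further quantile normalization, and -0.032 to 0.045 with 1 liver left out. Spcs1 was -0.0091, -0.024 and -0.028 in the same order, and -0.043 to 0.037. Lman1 was -0.0086 with the replicate block, -0.017 with centring and -0.0075 with quantile normalization, and -0.040 to 0.063. Sec11a ran from -0.0091 to 0.11 there, and Lman1 at 9 weeks from -0.0074 to 0.063. Signal over background limits Kdelr3, and the number of arrays limits the precision of the other differences. The deficient livers of 9 weeks also differed among themselves, and the genes called at 9 weeks depended on which liver was left out. The part of sex, litter or pairing was not tested.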
